A study of Homo sapiens with 18 samples.

Results

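Hypoxia-response and glycolysis genes were followed across 18 tumours, as 40 named human genes out of 25343 in the deposited tables. The 40 were chosen by symbol and matched to Entrez gene identifiers. The rule uses no measured value, but the genes were chosen with earlier results of these data known. All 40 were found, and all 40 passed the filter on low counts, which left 14074 genes for testing. By role, 20 belong to the hypoxia response outside glycolysis and 20 to glycolysis with its sugar and lactate transport.

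The tumours were xenografts in mice of HCT116, a colon cancer cell line of human origin, and every group carried a knockout of PTDSS2, a phosphatidylserine synthase gene, vehicle tumours included. The series concerns inhibition of PTDSS1, the paralogous synthase, in cancers that have lost PTDSS2. Mice received vehicle, DS55980254 at 10 mg/kg or DS55980254 at 30 mg/kg by mouth in 0.5% methylcellulose, and tumours taken 24 h later gave 6 libraries per group. Total RNA was sequenced from 5 ng per tumour with a stranded total-RNA kit made for small inputs. The labels do not say whether the knockout line was 1 clone, which host strain was used or whether each tumour came from its own mouse, so p-values measure only the spread between these samples.

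Cells that run short of oxygen stabilise the alpha subunits of the hypoxia-inducible factors (HIF), because the prolyl hydroxylases that mark HIF for destruction through VHL need oxygen. HIF then binds a short core sequence, ACGTG or GCGTG, near its target genes, which drive glucose uptake, glycolysis, lactate and proton export, vessel growth and removal of mitochondria. Solid tumours often hold oxygen-poor regions, and many glycolytic enzymes are also transcribed at high level in dividing cells with oxygen present.

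Promoters of 5 of the genes are printed here, chosen by the SD between tumours over all 18 libraries at a mean of at least 5 CPM. They are those of CA9, EGLN3 and ANGPTL4, with the largest SDs, and of ENO1 and PFKP, with the smallest (levels and SDs are given further on). Windows run from 250 bases before to 50 bases after the annotated start, in the direction of transcription, from RefSeq on GRCh38.p14, a build that is not named for the counts. Capitals mark each ACGTG or GCGTG on either strand, so that the reverse strand reads as CACGT or CACGC, and a CACGTG counts once on each strand. CA9 lies at chr9:35673678-35673977 on the plus strand, EGLN3 at chr14:33951025-33951324 (minus), ANGPTL4 at chr19:8363905-8364204 (plus) and ENO1 at chr1:8878637-8878936 (minus). PFKP has 4 windows, of which the one with an ACGTG is shown, at chr10:3068939-3069238 (plus).
CA9: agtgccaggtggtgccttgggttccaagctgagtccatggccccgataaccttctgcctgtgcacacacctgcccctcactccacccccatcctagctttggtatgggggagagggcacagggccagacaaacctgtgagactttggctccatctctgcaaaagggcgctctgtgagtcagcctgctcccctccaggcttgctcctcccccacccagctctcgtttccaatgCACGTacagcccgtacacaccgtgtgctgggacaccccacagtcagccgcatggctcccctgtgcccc
EGLN3: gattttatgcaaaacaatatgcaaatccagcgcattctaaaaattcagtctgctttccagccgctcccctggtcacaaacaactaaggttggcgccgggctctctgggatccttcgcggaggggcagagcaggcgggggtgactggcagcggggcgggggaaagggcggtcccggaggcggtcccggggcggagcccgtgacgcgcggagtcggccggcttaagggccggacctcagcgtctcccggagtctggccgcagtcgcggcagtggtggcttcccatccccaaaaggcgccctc
ANGPTL4: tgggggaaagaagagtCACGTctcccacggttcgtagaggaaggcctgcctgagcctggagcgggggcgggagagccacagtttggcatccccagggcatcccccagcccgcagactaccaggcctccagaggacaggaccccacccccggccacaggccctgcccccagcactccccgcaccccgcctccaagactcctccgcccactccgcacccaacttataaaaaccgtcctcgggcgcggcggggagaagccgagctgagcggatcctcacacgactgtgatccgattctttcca
ENO1: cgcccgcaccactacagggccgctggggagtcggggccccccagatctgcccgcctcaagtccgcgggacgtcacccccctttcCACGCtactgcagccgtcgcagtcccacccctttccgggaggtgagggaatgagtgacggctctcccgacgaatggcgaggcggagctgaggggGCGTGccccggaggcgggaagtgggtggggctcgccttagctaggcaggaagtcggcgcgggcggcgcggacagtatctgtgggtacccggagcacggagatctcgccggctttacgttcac
PFKP: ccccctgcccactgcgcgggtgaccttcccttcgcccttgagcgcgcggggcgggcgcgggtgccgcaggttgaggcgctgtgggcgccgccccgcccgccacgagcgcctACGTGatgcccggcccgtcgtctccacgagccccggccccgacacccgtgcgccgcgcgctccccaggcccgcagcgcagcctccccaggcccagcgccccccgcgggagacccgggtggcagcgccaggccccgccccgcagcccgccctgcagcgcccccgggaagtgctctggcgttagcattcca
The CA9 window held 1 ACGTG core, 18 bases before the start, and ANGPTL4 and the PFKP window 1 each. EGLN3 held neither core, and ENO1 no ACGTG but 2 GCGTG cores. Genes with a large and with a small spread both included some with and some without ACGTG: CA12 had none, TPI1 had 1 in 1 of its windows, and 1 window of LDHA had 5. Promoter windows were found for 35 of the 40 genes, and 21 of these 35 had ACGTG in at least 1 window. Among their 61 windows, several per gene for some, 26 held ACGTG (42.6%), against 25.2% of 16009 windows of genes tested and 21.4% of all 35116 windows of the same length. For GCGTG the shares were 49.2%, 48.0% and 36.5%. A match describes letters in a window and says nothing of binding.

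Total counts ran from 3435423 to 8538792 in 17 libraries and reached 433981 in 10 mg/kg replicate 2. There 3 counts equal 6.42 CPM (counts scaled to library size by TMM), against 0.359 to 0.868 CPM elsewhere, and its log2 values had a mean correlation of 0.726 with the other libraries, against at least 0.942 for the rest. Several results that rest on this library are given with and without it. PTDSS2 kept 4.97 to 13.9 CPM in these tumours, and gene counts do not show whether its transcripts carry the edit. Of 8 colon epithelial markers, 7 stood at 64.4 CPM or more in every library, while VIL1, the microvillus protein villin, averaged 0.344 CPM with vehicle. Summed markers of host cell types, counted on human genes, were low in 17 libraries: 61.8 to 109 CPM for fibroblasts (mostly COL1A1), 3.45 to 19.4 for endothelium, 11.3 to 22.0 for leukocytes, 0 to 1.74 for erythroid cells, 2.64 to 17.9 for muscle and 0.213 to 6.95 for fat. In 10 mg/kg replicate 2 these sums were 317, 105, 68.4, 17.1, 68.4 and 42.8 CPM, and 376 olfactory receptor genes summed to 1840 CPM against 471 to 803.

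Per unit of transcript length (TPM), the glycolytic enzymes led. With vehicle, PKM, the pyruvate kinase gene, averaged 1639 TPM, ALDOA, an aldolase, 1400 TPM, ENO1, the main enolase, 1354 TPM, and TPI1, triose phosphate isomerase, 1159 TPM. LDHA, which turns pyruvate into lactate, averaged 609 TPM. The SDs over 6 libraries were 181, 165, 104, 160 and 40.8 TPM, so the ranges of mean ± SD of neighbours among the first 4 overlapped, while that of LDHA lay below them. At the low end were CA9 at 8.44 ± 2.22 TPM, EGLN3 at 8.35 ± 2.13, SLC2A3 at 8.32 ± 2.19, CA12 at 1.83 ± 1.11 and LOX at 1.26 ± 0.199 (SD, n = 6 each), of which the first 3 did not differ beyond their spread. ENO1, TPI1, PGK1, PGAM1, LDHA and BNIP3 have processed pseudogenes, and how reads shared with such copies, or with the mouse host, were assigned is not given in the sources used here, so their levels are uncertain.

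Most hypoxia-response genes varied between tumours of the same group more than most genes of their level, while the glycolytic genes were divided. Spread is given as the SD of log2 CPM about the group means over 18 libraries, and as the ratio of a gene's dispersion (edgeR's variance beyond counting noise) to the trend at its level. The median SD of the 40 was 0.41, against 0.33 over all genes tested, and the median ratio was 2.01 against 0.705. Of the 40, 32 exceeded the all-gene median ratio and 18 lay in the top 10% of all genes. Without 10 mg/kg replicate 2 the median SD was 0.38 against 0.25 for all genes, and the median ratio 2.60 against 0.724. In bulk tumour RNA, fewer cells with a transcript and less of the transcript per cell cannot be told apart.

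For the 20 hypoxia-response genes outside glycolysis the median SD was 0.52 and the median ratio 3.14, with 19 over the all-gene median ratio and 11 in the top 10%. For the 20 genes of glycolysis and transport the medians were 0.27 and 1.18, with 13 over the all-gene median ratio and 7 in the top 10%. For comparison, the median ratio was 0.677 for 33 genes of the respiratory chain and 1.22 for 12 proliferation genes. These are descriptions, and no test was made of the difference between lists.

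**Figure D1:**
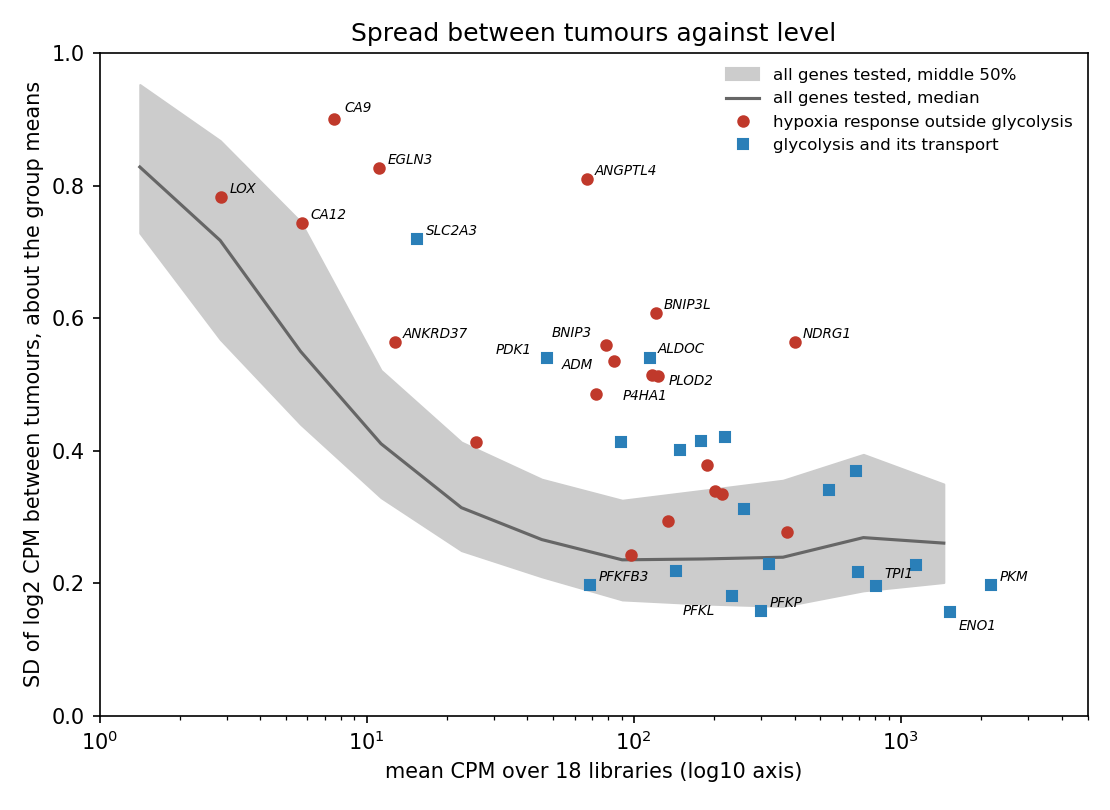
Each point is 1 of the 40 genes, with its mean CPM over 18 libraries (log10 axis) against the SD of its log2 CPM about the group means; the line and grey band give the median and the middle 50% of all genes tested at that level. Hypoxia-response genes (circles) such as ANGPTL4 at 0.81, BNIP3L at 0.61 and NDRG1 at 0.56 lie above the band, while ENO1 and PFKP, both at 0.16, lie at or below its lower edge.

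Among the genes of pH control, CA9 (Entrez gene 768) encodes carbonic anhydrase IX, a cell-surface enzyme much used as a marker of hypoxia. With all 18 libraries it had the largest SD of the 40, 0.90, which ran from 0.70 to 0.94 with 1 library left out. CA9 ran from 4.61 CPM through a median of 6.01 to 9.64 CPM with vehicle, from 3.45 through 6.15 to 32.1 CPM at 10 mg/kg, and from 1.37 through 5.66 to 11.9 CPM at 30 mg/kg. The value of 32.1 CPM was that of 10 mg/kg replicate 2 and rested on 15 counts, and without that library the group reached 6.98 CPM. The ranges of all 3 groups overlapped, and the log2 fold changes were 0.12 ± 0.47 at 10 mg/kg and -0.02 ± 0.44 at 30 mg/kg (SE). The former became -0.27 without 10 mg/kg replicate 2, and the latter lay between -0.28 and 0.18 when 1 library was left out. CA12 (Entrez gene 771), another membrane carbonic anhydrase, was low throughout. It ran from 1.72 through 3.03 to 7.52 CPM with vehicle, from 4.53 through 6.04 to 23.5 CPM at 10 mg/kg and from 1.92 through 4.26 to 7.82 CPM at 30 mg/kg. The highest value again came from 10 mg/kg replicate 2, from 11 counts, with 8.11 CPM the highest of the rest. Its log2 fold change of 0.96 ± 0.42 at 10 mg/kg was the largest of the 40 and did not pass (adjusted p = 0.476, edgeR quasi-likelihood test). Without 10 mg/kg replicate 2 this fold change was 0.69.

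Of the secreted factors, ANGPTL4 (Entrez gene 51129), which inhibits lipoprotein lipase, had an SD of 0.81, where genes tested at a like level had a median of 0.24. Its dispersion ratio of 10.8 was higher than that of 99.3% of genes tested. ANGPTL4 stood at 48.8 to 74.8 CPM with vehicle (median 58.9), at 19.8 to 130 CPM at 10 mg/kg (median 78.4) and at 14.8 to 110 CPM at 30 mg/kg (median 66.4). The 130 CPM were those of 10 mg/kg replicate 2, with 81.7 CPM next. Below the vehicle range lay replicate 5 at 10 mg/kg, and replicates 5 and 6 at 30 mg/kg, the last at 33.9 CPM. Replicate 5 stood at 0.248 and 0.212 of the median of the other libraries of its group. VEGFA (Entrez gene 7422), the main vessel growth factor, ran from 148 through 160 to 210 CPM with vehicle, from 149 through 231 to 349 CPM at 10 mg/kg and from 163 through 223 to 289 CPM at 30 mg/kg. The vehicle value of 210 CPM was that of replicate 3, with 165 CPM the next, and 5 of 6 tumours at each dose exceeded 165 CPM, all but replicate 5. The 349 CPM came from 10 mg/kg replicate 2, with 304 CPM next. ADM (Entrez gene 133), the vasodilator peptide adrenomedullin, ran from 64.6 through 82.1 to 137 CPM with vehicle, from 53.7 through 94.8 to 169 CPM at 10 mg/kg and from 33.4 through 68.6 to 110 CPM at 30 mg/kg, with the groups overlapping. Its 169 CPM also came from 10 mg/kg replicate 2, with 109 CPM the highest of the rest of that group.

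BNIP3L (Entrez gene 665) encodes a receptor that directs mitochondria to autophagy, and its SD was 0.61. BNIP3L ran from 97.1 through 129 to 138 CPM with vehicle, from 38.5 through 115 to 156 CPM at 10 mg/kg and from 50.1 through 138 to 206 CPM at 30 mg/kg. The lowest tumour at 10 mg/kg was replicate 2, and replicate 5 was lowest at 82.8 CPM without it, while 30 mg/kg held both the highest and, without replicate 2 of the lower dose, the lowest tumour of all. Its relative BNIP3 had an SD of 0.56, and HILPDA, a lipid droplet protein that holds back fat breakdown, 0.41.

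HIF1A (Entrez gene 3091), the gene of the oxygen-regulated subunit itself, was the lowest of its group in vehicle replicate 3, where many of its targets were highest. It was not low in replicate 5 of the dosed groups, where many of its targets were. HIF1A ran from 140 through 176 to 186 CPM with vehicle, from 72.7 through 195 to 225 CPM at 10 mg/kg and from 168 through 224 to 253 CPM at 30 mg/kg. The value of 72.7 CPM came from 10 mg/kg replicate 2, without which the SD of 0.38 became 0.17 and the 10 mg/kg group began at 165 CPM. EGLN3 (Entrez gene 112399), a HIF prolyl hydroxylase that HIF itself induces, had an SD of 0.83, which ran from 0.66 to 0.86 with 1 library left out. EGLN3 ran from 8.97 through 10.1 to 16.0 CPM with vehicle, from 3.23 through 10.4 to 40.6 CPM at 10 mg/kg and from 2.74 through 7.74 to 16.4 CPM at 30 mg/kg. The top value, again in 10 mg/kg replicate 2, rested on 19 counts, and the rest of its group reached 13.7 CPM. EGLN1, the main HIF hydroxylase, had an SD of 0.29.

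Collagen-modifying enzymes were mixed. P4HA2 (Entrez gene 8974), a collagen prolyl hydroxylase subunit, had an SD of 0.24 and ran from 70.6 through 83.0 to 93.8 CPM with vehicle, from 71.3 through 109 to 140 CPM at 10 mg/kg and from 76.2 through 105 to 116 CPM at 30 mg/kg. At 10 mg/kg 5 tumours and at 30 mg/kg 5 tumours exceeded the highest vehicle tumour, and replicate 5 was the exception in both groups. P4HA1, the alternative subunit, and PLOD2, a collagen lysyl hydroxylase, had SDs of 0.51 each, and PLOD1 0.28. LOX, the collagen crosslinking oxidase, averaged 2.85 CPM over all libraries and had no count in 10 mg/kg replicate 2, which allows up to 6.42 CPM, and its SD of 0.78 went with a dispersion ratio of 0.382, below the all-gene median.

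NDRG1 (Entrez gene 10397), a stress-responsive gene widely used as a hypoxia marker, had an SD of 0.56. It ran from 269 through 315 to 534 CPM with vehicle, from 175 through 462 to 653 CPM at 10 mg/kg and from 188 through 398 to 691 CPM at 30 mg/kg. ANKRD37 (Entrez gene 353322), an ankyrin repeat gene among the direct HIF targets, ran from 12.0 through 15.7 to 18.3 CPM with vehicle, from 4.31 through 10.6 to 19.4 CPM at 10 mg/kg and from 5.75 through 10.6 to 21.3 CPM at 30 mg/kg. For both genes the dosed groups reached below and above the vehicle range, with replicate 5 lowest in each dosed group and replicate 4 highest. KDM3A, a histone demethylase, had an SD of 0.34 and MXI1, a MYC antagonist, 0.49.

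SLC2A3 (Entrez gene 6515), which encodes the high-affinity glucose transporter GLUT3, had an SD of 0.72. It ran from 10.8 through 15.8 to 22.8 CPM with vehicle, from 4.53 through 13.4 to 35.3 CPM at 10 mg/kg and from 5.75 through 12.6 to 23.4 CPM at 30 mg/kg. The low ends at both doses were again replicate 5 and the high ends replicate 4. SLC2A1, the general glucose transporter GLUT1, and SLC16A3, the lactate exporter MCT4, varied less, with SDs of 0.37 and 0.42.

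ENO1, PFKP, PFKL and TPI1 had the smallest SDs of the 40. ENO1 (Entrez gene 2023) ran from 1389 through 1432 to 1788 CPM with vehicle, from 1162 through 1592 to 1646 CPM at 10 mg/kg and from 1452 through 1594 to 1760 CPM at 30 mg/kg, an SD of 0.16. TPI1 (Entrez gene 7167) ran from 649 through 727 to 998 CPM with vehicle, from 627 through 827 to 914 CPM at 10 mg/kg and from 770 through 858 to 953 CPM at 30 mg/kg, an SD of 0.20. For both genes the highest tumour of all on CPM was vehicle replicate 3 and the lowest 10 mg/kg replicate 5, and the groups overlapped. On TPM the lowest was 10 mg/kg replicate 2 for ENO1 (786 TPM) and TPI1 (705 TPM). ENO1 was then highest in 30 mg/kg replicate 2, at 1622 TPM against 1553 TPM in vehicle replicate 3. Of the phosphofructokinase genes, PFKP (Entrez gene 5214) ran from 262 through 270 to 330 CPM with vehicle, from 251 through 313 to 369 CPM at 10 mg/kg and from 277 through 299 to 337 CPM at 30 mg/kg. PFKL (Entrez gene 5211) ran from 202 through 231 to 287 CPM with vehicle, from 181 through 245 to 282 CPM at 10 mg/kg and from 200 through 220 to 251 CPM at 30 mg/kg. Their SDs were 0.16 and 0.18, and the groups overlapped almost wholly. Larger SDs within glycolysis were those of ALDOC, the brain-type aldolase, at 0.54, and PDK1 (Entrez gene 5163), a kinase that inhibits pyruvate dehydrogenase, at 0.54. Next came ENO2, the neuronal enolase, at 0.41, PFKFB4 at 0.41 and HK2, the inducible hexokinase, at 0.40. PDK1 ran from 39.3 through 50.1 to 55.9 CPM with vehicle, from 27.8 through 44.6 to 59.9 CPM at 10 mg/kg and from 18.9 through 51.0 to 80.1 CPM at 30 mg/kg. Its 27.8 CPM came from 10 mg/kg replicate 2, from 13 counts, with 31.7 CPM the lowest of the rest of that group. At 30 mg/kg replicates 1, 2 and 4 stood at 65.1 CPM or more and replicates 3, 5 and 6 at 36.8 CPM or less. ALDOA and HK1, the broadly expressed counterparts of ALDOC and HK2, had SDs of 0.23 and 0.22. PKM and PFKFB3, which sets the level of a phosphofructokinase activator, had 0.20 each, LDHA 0.22, PGAM1, the phosphoglycerate mutase, 0.23, PGK1, phosphoglycerate kinase, 0.31 and GPI, the glucose phosphate isomerase, 0.34. For PGK1 and GPI the dispersion ratios of 1.58 and 1.71 were above the all-gene median of 0.705.

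**Figure D2:**
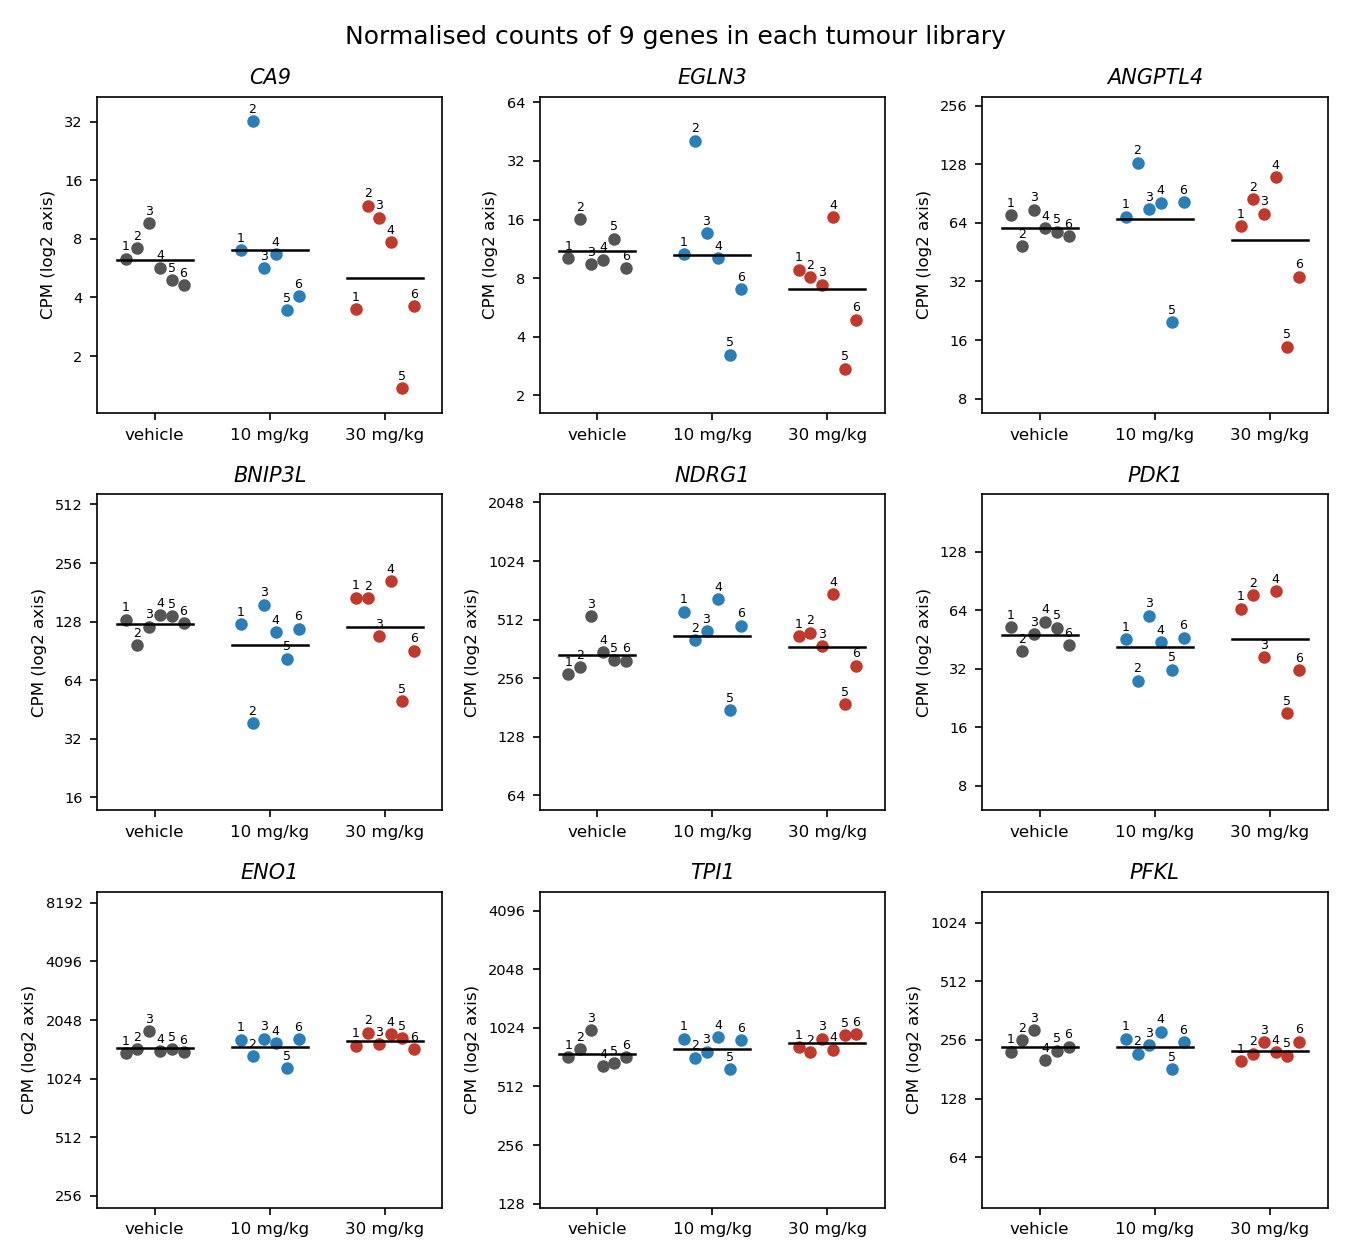
Normalised counts (CPM, log2 axis, with the same span of log2 units in each panel) of 9 genes in each tumour library, numbered by replicate, with the geometric mean of each group as a bar. CA9, EGLN3, ANGPTL4, BNIP3L, NDRG1 and PDK1 scatter widely with replicate 5 low in both dosed groups, while ENO1, TPI1 and PFKL lie close together.

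Single tumours were high or low for most of the list at once. Vehicle replicate 3 was the highest of its group for 30 of 40 genes, against 23.8% of all genes tested, with a median log2 deviation of 0.34 from the median of the other vehicle libraries. It was highest for 18 of the 20 genes of glycolysis and transport, among them SLC16A3 at 1.83 times, SLC2A3 at 1.70 times and SLC2A1 at 1.65 times that median. The 10 exceptions were CA12, BNIP3L, HIF1A, EGLN1, EGLN3, P4HA1, LOX, MXI1, PGK1 and PDK1. No gene of the group of HIF and its hydroxylases was highest there, and HIF1A at 140 CPM and EGLN1 at 107 CPM were at their lowest among vehicle tumours.

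At 30 mg/kg, replicate 4 was the highest of its group for 28 genes (17.8% of all genes tested), with a median log2 deviation of 0.50. PDK1 stood there at 2.16 times, EGLN3 at 2.14 times and ANKRD37 at 2.04 times the median of the other libraries. Hypoxia-response genes and glycolysis genes each gave 14 of the 28, with median deviations of 0.77 and 0.37. Of the 30 genes highest in vehicle replicate 3, 21 were also among the 28 highest here. Those 30 make up 75% of the list. About that share of 28 genes drawn from it at random would be among them. This overlap therefore shows no link between these tumours.

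Replicate 5 at 30 mg/kg was the lowest of its group for 27 genes, against 22.5% of all genes tested, with a median log2 deviation of -0.55. The hypoxia-response genes gave 16 of the 27 and had a median deviation of -0.92, and glycolysis and transport gave 11 with a median of -0.34. ANGPTL4 stood at 0.212, CA9 at 0.225, PDK1 at 0.295, BNIP3L at 0.300 and P4HA1 at 0.340 of the median of the other libraries. TPI1, ENO1, PKM and HK1 stood at 1.15, 1.07, 1.06 and 1.05 times that median, and HIF1A at 1.08 times. Replicate 6 at the same dose was below the median of the others for 34 of 40 genes, with a median log2 deviation of -0.36.

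Replicate 5 at 10 mg/kg was the lowest of its group for 23 genes (15.7% of all genes tested), and for 37 of 40 genes with 10 mg/kg replicate 2 left out (22.8% of all genes tested), but for 13 on log2(TPM + 1) with all libraries. On that scale 10 mg/kg replicate 2 was the lowest for the rest. On CPM replicate 5 stood below the median of the other libraries for 38 genes, the exceptions being HIF1A at 1.10 times and LOX at 1.37 times. ANGPTL4 stood at 0.248, EGLN3 at 0.334, SLC2A3 at 0.354, ANKRD37 at 0.366 and NDRG1 at 0.369 of that median. Core enzymes were low here too, with TPI1 at 0.711, ENO1 at 0.716 and PKM at 0.719 of it. With replicate 2 left out, 26 genes were lowest in replicate 5 of both doses, of the 27 lowest at 30 mg/kg and the 37 lowest at 10 mg/kg. With 37 of 40 genes lowest at 10 mg/kg, most of any 27 had to be among them. This overlap therefore shows no link between the 2 tumours. The labels give a shared replicate number no meaning across groups.

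In the same tumours, the summed CPM of 12 proliferation genes was 2635 in vehicle replicate 3, 2622 in 10 mg/kg replicate 5, 2452 in 30 mg/kg replicate 4 and 2895 in 30 mg/kg replicate 5, within a range of 1936 to 3100 over 17 libraries. The fibroblast sum was 61.8 CPM in vehicle replicate 3, the lowest of the 17, and 73.1, 86.6 and 69.3 CPM in the other 3. The endothelial sum was 3.45 CPM in 10 mg/kg replicate 5, the lowest of the 17, and 19.4 CPM in 30 mg/kg replicate 5, the highest. The colon epithelial sum was 7149, 5279, 5892 and 7215 CPM in the same order. Its value in 10 mg/kg replicate 5 was the lowest of the 17, which reached 7516 CPM. Total counts of these 4 tumours were 4370604, 4654630, 4005040 and 3755044, all within the range of the 17. The part of host cells, tumour cell number or depth in these deviations was not tested.

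**Figure D3:**
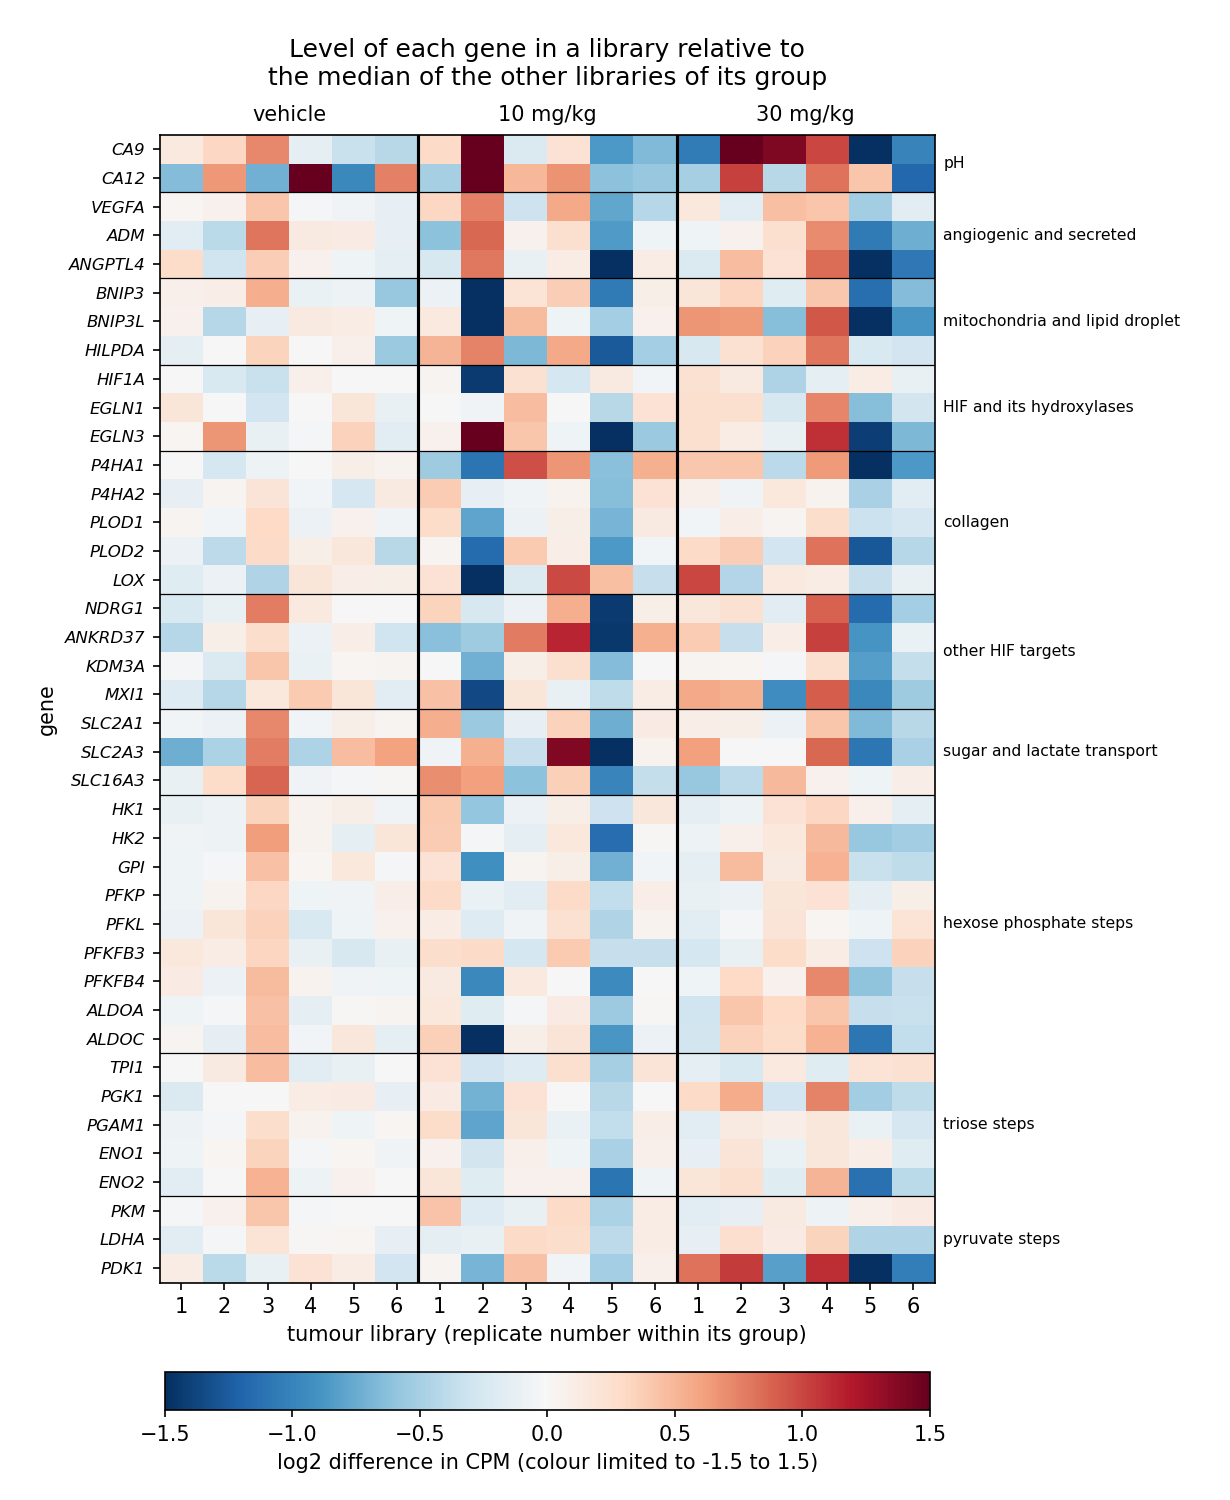
Rows are the 40 genes by role and columns the 18 libraries; colour gives the log2 difference of a library's CPM from the median of the other 5 libraries of its group, limited to -1.5 to 1.5. Vehicle replicate 3 and 30 mg/kg replicate 4 are red, and replicate 5 of both doses blue, through most rows, while 10 mg/kg replicate 2 mixes both colours.

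The spread of the list was larger in both dosed groups than with vehicle. The median SD of log2 CPM over 6 libraries was 0.20 for vehicle tumours, 0.49 for those given 10 mg/kg and 0.38 for those given 30 mg/kg, against 0.20, 0.42 and 0.26 for all genes tested. At 10 mg/kg 39 of 40 genes had a larger SD than with vehicle, as did 86.5% of all genes, and at 30 mg/kg 33 of 40 did, as did 66.9% of all genes. Without 10 mg/kg replicate 2 the count at 10 mg/kg was still 39, against 63.4% of all genes, and the median SD 0.36 against 0.24. That count rested on replicate 5: with it left out as well, 19 of 40 genes had a larger SD than with vehicle (58.4% of all genes), and the median SD was 0.18. At 30 mg/kg the count without replicate 5 was 33 (60.5% of all genes), with a median SD of 0.33 against 0.24. For single genes, PDK1 had SDs of 0.20, 0.40 and 0.82 in the same order of groups, and ANGPTL4 0.23, 0.91 and 1.04. No test was made of the difference in spread between groups.

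**Figure D4:**
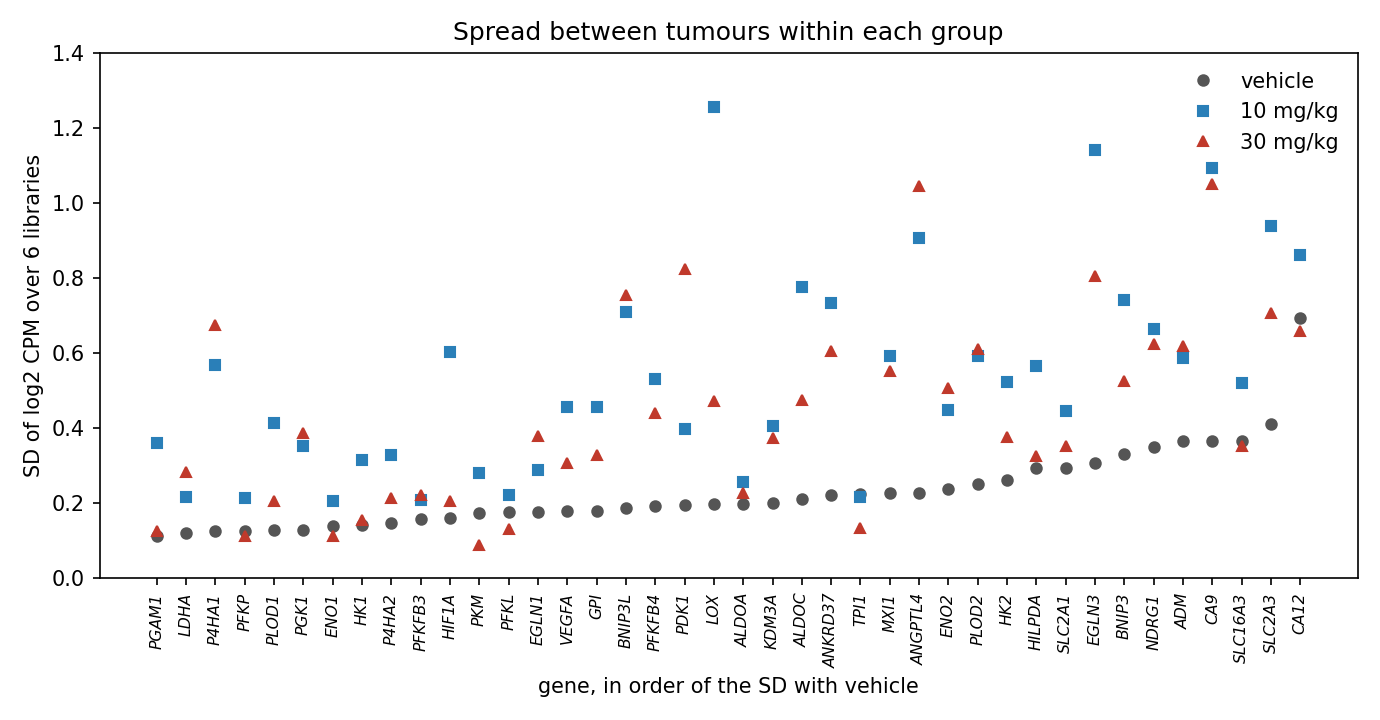
The SD of log2 CPM over the 6 libraries of each group (vertical axis) for each of the 40 genes, in the order of the SD with vehicle. Squares (10 mg/kg) lie above the vehicle circles for 39 genes and triangles (30 mg/kg) for 33, and the 10 mg/kg values include replicate 2.

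With all 18 libraries in the fit, no gene of the list passed the threshold at either dose of DS55980254. At 10 mg/kg 0 of 40 genes had an adjusted p under 0.05 (edgeR quasi-likelihood test, Benjamini-Hochberg over all genes), where 0.469% of all genes tested did. At an unadjusted p under 0.05 there were 3 genes (7.5%) against 9.5% of all genes. DESeq2 called 0 of the 40, against 159 of 14074 genes, with 1 of the 40 lacking an adjusted p. At an unadjusted p under 0.05 DESeq2 had 4 of the 40, against 1616 of all 14074. The median log2 fold change of the 40 was 0.04, from -0.39 for ANKRD37 to 0.96 for CA12, against -0.01 over all genes. The median was -0.02 without the filter on low counts, where that over all genes was 0.07. The 3 genes with the smallest p were P4HA2 at 1.33-fold (log2 0.41 ± 0.13 SE, adjusted p = 0.269), VEGFA at 1.43-fold (0.51 ± 0.17, adjusted p = 0.283) and CA12, given above. Without 10 mg/kg replicate 5, P4HA2 passed (log2 0.52, adjusted p = 0.0404), in a fit where 74 of 14182 genes did. The adjusted p of P4HA2 ran from 0.0404 to 0.487 over all alternatives.

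At 30 mg/kg 0 of 40 genes passed, against 0.618% of all genes tested. There were 3 genes (7.5%) at an unadjusted p under 0.05, against 7.9% of all genes. DESeq2 called 0 of the 40, against 179 of 14074 genes, with 1 of the 40 lacking an adjusted p. At an unadjusted p under 0.05 DESeq2 had 4 of the 40, against 1206 of all 14074. The median log2 fold change was 0.10, from -0.47 for EGLN3 to 0.48 for VEGFA, against -0.00 over all genes. The median was -0.02 without 30 mg/kg replicate 4. With vehicle VEGFA averaged 167 ± 22.3 CPM, which compares with 232 ± 47.9 CPM here (SD, n = 6 each), 1.39-fold (log2 0.48 ± 0.17, adjusted p = 0.359). HIF1A averaged 168 ± 17.9 and 220 ± 29.3 CPM (SD, n = 6 each), 1.31-fold (0.39 ± 0.16, adjusted p = 0.480). P4HA2 averaged 82.9 ± 8.46 and 101 ± 14.0 CPM, 1.22-fold (0.29 ± 0.13, adjusted p = 0.566). HIF1A passed once 10 mg/kg replicate 2 was left out of the fit, whose spread all groups share (log2 0.39, adjusted p = 0.0344), and when the vehicle and 30 mg/kg groups were fitted alone (0.40, adjusted p = 0.0376). In these fits 182 of 14145 and 191 of 13644 genes passed. With 10 mg/kg replicate 2 and 30 mg/kg replicate 5 both left out HIF1A did not pass in edgeR's test (adjusted p = 0.0564). Over all alternatives its adjusted p ran from 0.0344 to 0.730. HIF1A has an antisense neighbour, and whether counting used the strand is not given in the sources used here.

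Between the doses 0 of 40 genes passed, where 0% of all genes tested did. None of the 40 had an unadjusted p under 0.05, against 3.52% of all genes. DESeq2 called 0 of the 40 and 0 of all 14074 genes, with 1 and 735 at an unadjusted p under 0.05. The smallest p-values were those of HIF1A (log2 fold change of 30 over 10 mg/kg 0.27 ± 0.16), ADM (-0.45 ± 0.27) and CA12 (-0.60 ± 0.42), each with adjusted p = 0.969. Without 10 mg/kg replicate 2 these log2 fold changes shrank to 0.15, -0.31 and -0.34. In a joint test of any difference among the groups 0 of 40 passed, against 0.568% of all genes tested. There DESeq2 called 0 of the 40, against 204 of 14074 genes. At an unadjusted p under 0.05 edgeR had 2 genes, against 7.6% of all genes, and DESeq2 4, against 1574 of all 14074. VEGFA (adjusted p = 0.419), P4HA2 (0.488) and HIF1A (0.656) came closest. The CPM ranges of the groups compared overlapped for all 40 genes in each comparison, and did not overlap for 1.16% of all genes tested at 10 mg/kg, 1.73% at 30 mg/kg and 0.135% between the doses. The 2 dosed comparisons share the vehicle tumours.

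**Figure D5:**
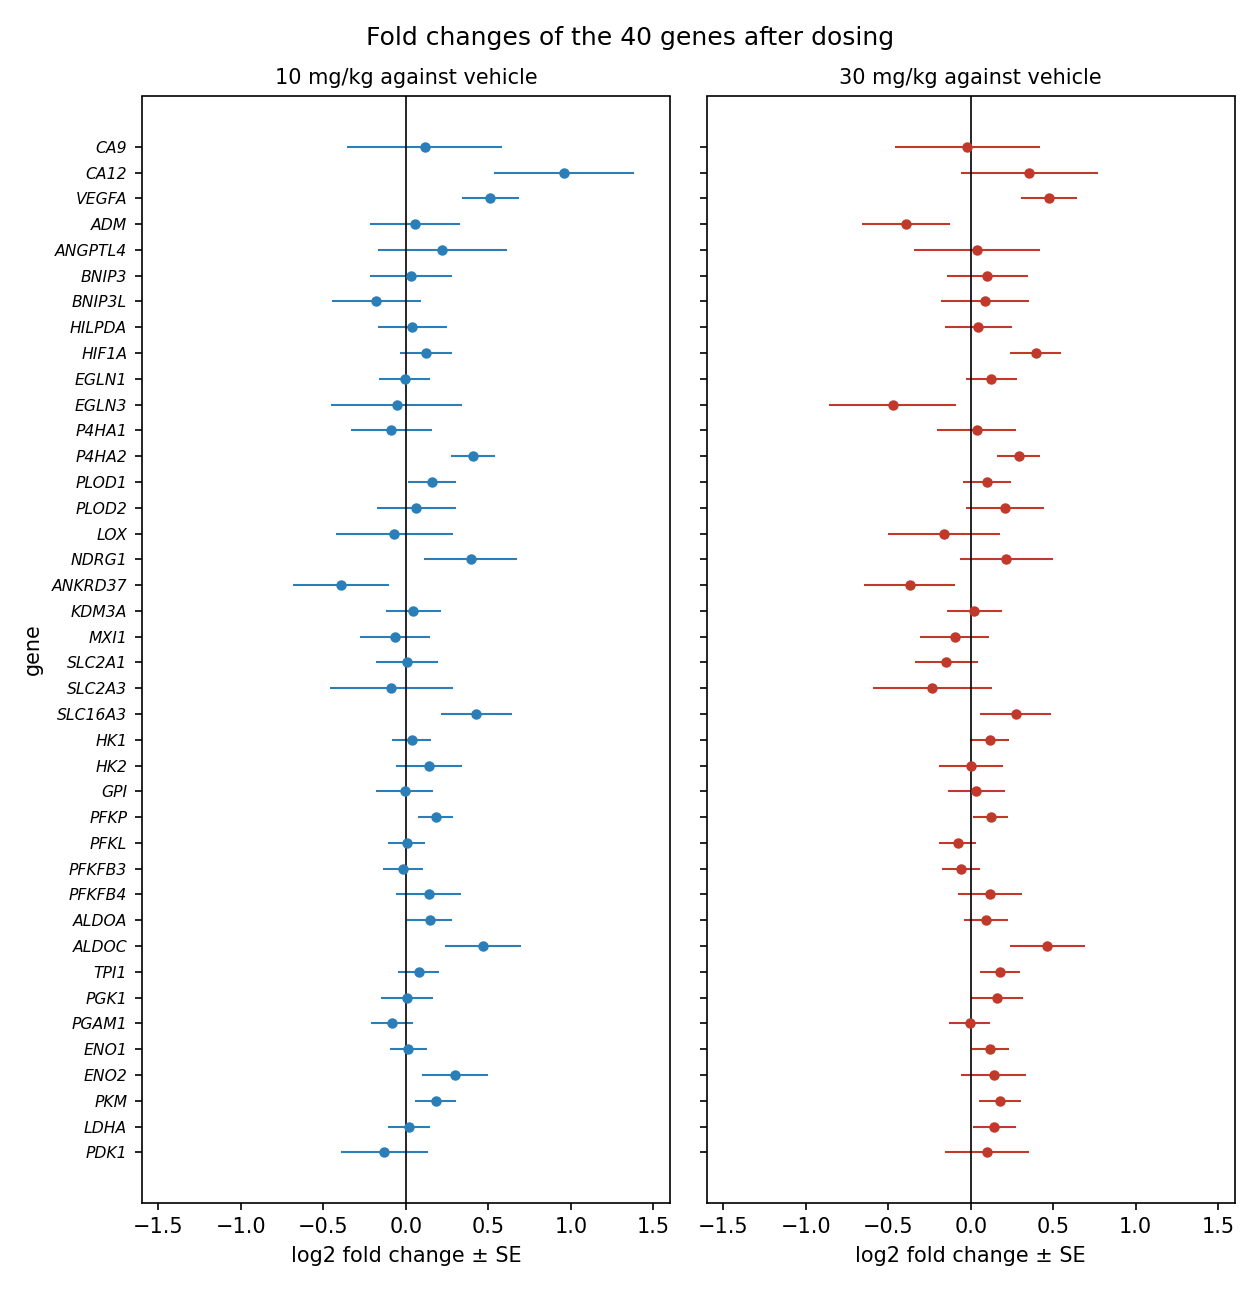
Log2 fold change ± SE (horizontal axis) of each of the 40 genes at 10 mg/kg and at 30 mg/kg against vehicle, 6 libraries per group. Most estimates lie near 0, with CA12 at 0.96 the largest at 10 mg/kg and VEGFA at 0.48 the largest at 30 mg/kg, and none passed the threshold over all genes. The CA12 value was 0.69 without 10 mg/kg replicate 2.

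Other genes of the pathways were taken from lists drawn up by function. Of 30 other hypoxia genes 28 were tested and 0 passed in any comparison by edgeR. At an unadjusted p under 0.05 there were 5, 4 and 2 of the 28 at 10 mg/kg, at 30 mg/kg and between the doses. The shares of all genes tested were 9.5%, 7.9% and 3.52%. Their median log2 fold changes were 0.08 and 0.11 against vehicle. Their median dispersion ratio of 1.47 was above the all-gene 0.705, but their median SD of 0.32 was below the all-gene 0.33, with 13 of 28 over that median. The 3 largest SDs among them at a mean of at least 5 CPM follow. FAM162A, a HIF target of mitochondria, had an SD of 0.52 and stood at 26.3 CPM in 30 mg/kg replicate 5 and 65.8 CPM in replicate 4. INSIG2, an endoplasmic reticulum protein that restrains sterol synthesis, also had 0.52, with 10.4 and 52.7 CPM in the same tumours. VHL, which directs HIF to degradation, had 0.55, and stood at 297 CPM in 10 mg/kg replicate 2 against 54.8 CPM in the lowest tumour of that group.

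Of 34 other glycolysis and pyruvate genes 28 were tested, with a median dispersion ratio of 0.887. At 30 mg/kg 1 rose, PCK2, the mitochondrial phosphoenolpyruvate carboxykinase, from 21.6 ± 3.70 to 35.1 ± 7.91 CPM (SD, n = 6 each), 1.62-fold with adjusted p = 0.0222 in edgeR's test. PCK2 no longer passed without vehicle replicate 2, 4, 5 or 6 or 30 mg/kg replicate 5 or 6, or with the replicate number as a block, and over all alternatives its adjusted p ran from 0.00260 to 0.101. PCK2 works in the direction opposite to glycolysis, and at 10 mg/kg it stood at 30.8 ± 4.13 CPM (1.43-fold, adjusted p = 0.221). None passed at 10 mg/kg, where 5 of the 28 had an unadjusted p under 0.05 (9.5% of all genes tested), or between the doses, where 0 did (3.52%). At 30 mg/kg 1 of the 28 passed, where 0.618% of all genes tested did. There 4 of the 28 had an unadjusted p under 0.05, against 7.9% of all genes. GAPDH, the glyceraldehyde phosphate dehydrogenase gene with many pseudogenes, had an SD of 0.55 and stood at 896 CPM in 10 mg/kg replicate 2 against a highest value of 4540 CPM in that group. At a mean of at least 5 CPM the other largest SDs of this list were those of SLC16A7, a pyruvate and lactate carrier (0.57), and MPC1, a subunit of the mitochondrial pyruvate carrier (0.41). Of 33 respiratory chain genes 0 passed in any comparison. At an unadjusted p under 0.05 there were 1 at 10 mg/kg, 0 at 30 mg/kg and 1 between the doses, against 9.5%, 7.9% and 3.52% of all genes tested.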

How the data were processed

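RNA was sequenced from 18 xenograft tumours in 3 groups of 6. Per the file headers, the authors deposited expected counts (unscaled read estimates by gene) and TPM, in which transcript length is scaled out. The submitters' processing notes name STAR 2.4.2a, hg19 and mm10. Not given in the sources used here are the quantifier, its annotation, the role of each build and the assignment of mouse reads. Symbols were matched by Entrez identifier for 25220 genes and by accession for 26, and 97 had none.

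Expected counts were rounded, filtered with filterByExpr, scaled by TMM and fitted over all 18 libraries with the robust quasi-likelihood test of edgeR 4.0.16 in R 4.3.3, after a test on simulated data. The threshold was a Benjamini-Hochberg adjusted p of 0.05 over 14074 genes. Levels are CPM, and log2 CPM carried a prior count of 2. Dispersion ratios set edgeR's unmoderated gene-wise dispersion over its trend. The limit of 3 counts given for a count of 0 covers counting error only, while SDs and SEs include the spread between tumours.

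The 40 genes and all lists were chosen with earlier results of these data known. Values are given for the 3 genes with the smallest p per comparison, the 8 with the largest and 4 with the smallest SD at a mean of at least 5 CPM, and the most variable gene of any role otherwise unnamed. Alternatives were DESeq2 1.42.0 and its size factors, no filter, the groups compared fitted alone, a replicate block, a prior count of 0.5, log2(TPM + 1) for spread and ranks, each library left out, and 10 mg/kg replicate 2 with 30 mg/kg replicate 5 left out. Leaving out 10 mg/kg replicate 5 as well, and the counts of genes by library, were added after seeing the data.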

Additional observations from a re-analysis of the deposited data

Results flagged for a closer look

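Of 51 groups of 6 values tested (17 genes in 3 groups), 8 held 1 tumour whose gap to the nearest other exceeded Dixon's critical share of the group's range. Chance flags about 1 in 20 groups where values are independent, which does not apply here, since some of the genes were named for their spread and all flags come from 2 libraries. Vehicle replicate 3 was the high tumour for 5 genes: VEGFA at 210 CPM with 165 next, ADM at 137 with 86.0 next, NDRG1 at 534 with 349 next, PFKP at 330 with 284 next and ENO1 at 1788 with 1448 next. In 10 mg/kg replicate 2, the shallowest library, CA9 stood at 32.1 CPM with 6.98 next, CA12 at 23.5 with 8.11 next and EGLN3 at 40.6 with 13.7 next.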

How the results depend on the processing

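Of 14074 genes, 66, 87 and 80 passed at 10 mg/kg, at 30 mg/kg and for any difference. These counts were 32, 57 and 47 without a filter and 159, 179 and 204 with DESeq2. The groups compared alone gave 36 at 10 mg/kg and 191 at 30 mg/kg, with no value for any difference. With 10 mg/kg replicate 2 and 30 mg/kg replicate 5 both left out they were 135, 212 and 185. Leaving out 1 library gave 31 to 121, 61 to 182 and 47 to 154, and 0 to 0 between the doses. The moves of over 1.5 times at 10 mg/kg came without vehicle replicate 1 (42), 2 (40) or 5 (31) or 10 mg/kg replicate 2 (121), at 30 mg/kg without 10 mg/kg replicate 2 (182), and for any difference without vehicle replicate 4 (53) or 5 (47) or 10 mg/kg replicate 2 (154). Of the 40 genes, 0 to 1 passed at either dose and 0 otherwise when 1 library was left out, and 1 passed at 30 mg/kg with the groups compared alone. No pairing of tumours by replicate number was seen: 3 of 18 same-number pairs correlated above 0.1, and 1 of 18 libraries was closest to its own number. Low correlations cannot show that the tumours were not matched. With a replicate block, 24, 60 and 42 genes passed, 0 between the doses and 0 of the 40. The median SD of the 40 ran from 0.34 to 0.42 and the median dispersion ratio from 1.69 to 2.60 with 1 library left out. Counts of genes for single tumours were 30 to 30 for vehicle replicate 3, 28 to 30 for 30 mg/kg replicate 4, 27 to 29 for 30 mg/kg replicate 5 and 23 to 37 for 10 mg/kg replicate 5, the 37 without 10 mg/kg replicate 2. For the last, the count was 13 on log2(TPM + 1) and 37 with both libraries left out. On TPM, 10 mg/kg replicate 2 was the lowest of the group for the rest of the 40, with ENO1 at 786 TPM against 1112 TPM in 10 mg/kg replicate 5. Why 10 mg/kg replicate 2 stood lower on TPM than on CPM was not tested. Genes with a larger SD than vehicle numbered 33 to 40 at 10 mg/kg and 30 to 39 at 30 mg/kg, and 19 at 10 mg/kg with the 3 libraries left out. Values near 0 changed sign. The median log2 fold change of the 40 went from 0.04 to -0.0219 at 10 mg/kg without a filter and ran from 0.01 to 0.16 with 1 library left out, and from 0.10 at 30 mg/kg it ran from -0.0213 (without 30 mg/kg replicate 4) to 0.16. The log2 fold change of CA9 ran from -0.27 to 0.30 at 10 mg/kg and from -0.28 to 0.18 at 30 mg/kg with 1 library left out, and was -0.27 and 0.17 with both left out. Among other single-gene values, 25 moved by more than their error, 3 newly passed and 7, all of PCK2, no longer passed. HIF1A's SD of 0.38 moved to 0.17 without 10 mg/kg replicate 2. With 433981 counts, that library cannot resolve genes under about 6.42 CPM.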
